A study of Mus musculus with 4 samples.

Results

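Btg2, Fosl2, Gadd45b, Jund, Klf10 and Nr4a3 are immediate early and activity-response genes, and their ribosome footprints at the translation initiation site are described here in primary mouse cortical neurons. They are 6 of the 6352 transcripts in the deposited table, found by their symbols, and each had 1 transcript. They were selected on their measured difference between Ltn1 KO and WT, which was among the lowest 5% of the table in the TTC pair of libraries, so that their values in this pair are given as a description without a test. The neurons were WT or Ltn1 KO, each with scrambled or Ttc3 RNAi. LTN1 is the ubiquitin ligase that acts on nascent chains of stalled ribosomes, and Ttc3 encodes another ubiquitin ligase. All cultures received harringtonine at 5 µg/ml for 3 min, a drug that holds ribosomes at start codons. Each of the 4 combinations was measured in 1 library, with no replicate, so that intervals and tests cover counting error only and compare libraries, not genotypes.

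Titles and characteristics put scrambled RNAi on the libraries coded TTC and Ttc3 RNAi on those coded SC, whereas the letters of the codes point the other way. The libraries are therefore named by their labelled genotype and code. The study's own ranked list of KO minus WT differences names no RNAi arm. It has Egr4 as lower in KO, whereas both libraries coded TTC listed Egr4 at 0, so that this list was not drawn from them. It also has Spry2 as lower in KO, whereas Spry2 had 3 reads in WT TTC and 15 in KO TTC. In the libraries coded SC, WT had 10 reads of Egr4 and 5 of Spry2, and KO listed both at 0. For these 2 genes the list thus has the direction of the libraries coded SC, which the titles give as Ttc3 RNAi. WT TTC and KO TTC are titled control RNAi and form the TTC pair, and WT SC and KO SC are titled Ttc3 RNAi and form the SC pair. The WT SC library held 2096153 reads, WT TTC 1460425, KO SC 2673112 and KO TTC 3655827. Levels are in RPM, reads scaled to the size of the library, and 1 read was worth 0.477, 0.685, 0.374 and 0.274 RPM in the same order. Where 4 values follow without names, they are in this order of libraries. The deleted gene did not separate the genotypes by label, since the reads of Ltn1 were 10 (WT SC), 2 (WT TTC), 37 (KO SC) and a listed 0 (KO TTC), and which part of it was deleted is not given in the sources used here. For Ttc3, WT SC had 3 reads and KO SC 2, and both TTC libraries were listed at 0. Among the neuronal markers, 11 of 11 were in the table and their summed level was 1745 to 2001 RPM, whereas none of 8 microglial markers was listed. The table does not pair a level with the window it was counted in, and levels of different genes are values at 1 site each, not divided by a length.

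Immediate early genes are transcribed within minutes of synaptic activity or growth factor signals, without new protein synthesis. Calcium entering through NMDA receptors and channels activates kinases such as CaMK, which act on CREB, SRF and other factors already present in the nucleus. Many of the products are themselves transcription factors, as are the AP-1, EGR, NR4A and KLF proteins, and others, such as the GADD45 and BTG proteins, link the response to stress, growth and mRNA decay. Their mRNAs are short-lived.

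The genes are mostly compact. On GRCm38 (RefSeq annotation), Gadd45b spans chr10:80930091-80932204, or 2114 bases, Jund chr8:70697739-70700616 (2878 bases) and Btg2 chr1:134074865-134079155 (4291 bases). Klf10 spans chr15:38291464-38300711 (9248 bases), Fosl2 chr5:32136472-32157840 (21369 bases) and Nr4a3 chr4:48045078-48086447 (41370 bases). The median of these spans was 6770 bases, against 28284 bases over 6134 table genes matched to the annotation and 5297 bases over the 11 other genes of the same families. Only Nr4a3 was longer than the median gene, with 61.6% of the genes shorter.

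The cAMP response element (CRE) is the site bound by CREB, and promoter windows from 250 bases before to 50 bases after a RefSeq transcription start were at hand for 5 of the 6 genes, Btg2, Fosl2, Gadd45b, Jund and Nr4a3. For Nr4a3 the start used by the window, at 48045305, lies 227 bases inside the gene span given above, and for the other 4 it is the outer end of the span. Stretches with matches are shown for Btg2 and Nr4a3, with the matches in capitals, in the direction of the gene.
Btg2 (chr1:134079294-134079341, minus strand): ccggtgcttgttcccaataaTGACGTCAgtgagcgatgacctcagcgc
Nr4a3 (chr4:48045055-48045107, plus strand): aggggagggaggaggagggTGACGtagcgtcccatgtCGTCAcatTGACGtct
Btg2 held the full palindromic CRE, TGACGTCA, at positions -166 to -159 relative to the start, where its capitals stand. A full CRE was found in 3.16% of the 6460 windows of table genes, searched on both strands. Nr4a3 held no full CRE but 4 copies of the core TGACG, on either strand, of which the first 3 lie within the stretch shown and the fourth begins at position -147. Because of the start used, the first of these ends on the outermost base of the gene span and the other 3 lie inside the gene. Every full CRE contains the core, which occurred in 33.0% of the windows. Fosl2, Gadd45b and Jund had neither in these windows. The AP-1 site TGANTCA (4.37% of the windows) and the CArG box bound by SRF (1.28%) were found in none of the 5 windows. These are letter matches, and binding was not measured.

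**Figure D1:**
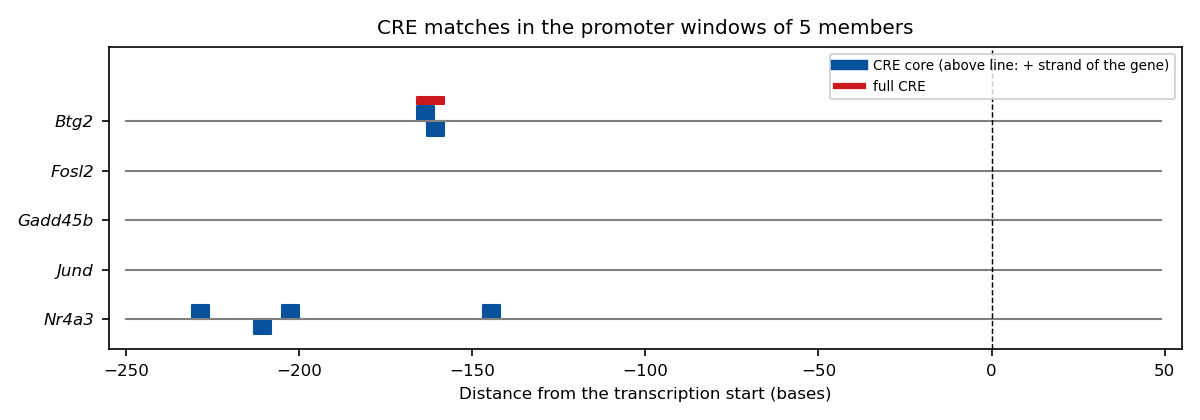
Positions of CRE matches (horizontal axis, bases from the transcription start, dashed line) in the promoter windows of 5 genes (vertical axis). Blue blocks are CRE cores, above the line on the strand of the gene and below it on the other strand, and the red block is a full CRE. The matches lie in Btg2 and Nr4a3, between positions -231 and -143.

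Many of the member values are 0, and a 0 in this table is not an ordinary low count. For each library, transcripts were taken for which the rate in the other 3 libraries predicted 10 to 20 reads. Over the 4 libraries these were 3893 values, of which 207 were 0, 14 were 1 read, 20 were 2 reads and 42 were 3 reads. In WT SC, 60 of 992 such transcripts were listed at 0 and none at 1 read. Zeros thus stand apart from low counts, and how transcripts were chosen for each library is not given in the sources used here. The rows also stand in 4 runs, each sorted by transcript identifier. All 548 rows of the second run are at 0 in WT SC, against 11.5% of the 5371 rows of the first. Jund is in the first run and the other 5 genes are in the second, which holds 8.63% of the table. The values of 0 below are therefore given as "listed at 0", and no fold is drawn from them. Differences in log10(RPM + 1) against a listed 0 are printed to place a gene in the table, and their size depends on the pseudocount. For Btg2 in the SC pair, for example, the difference is 0.820 with 1 RPM added and 1.76 with 0.1 RPM added.

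**Figure D2:**
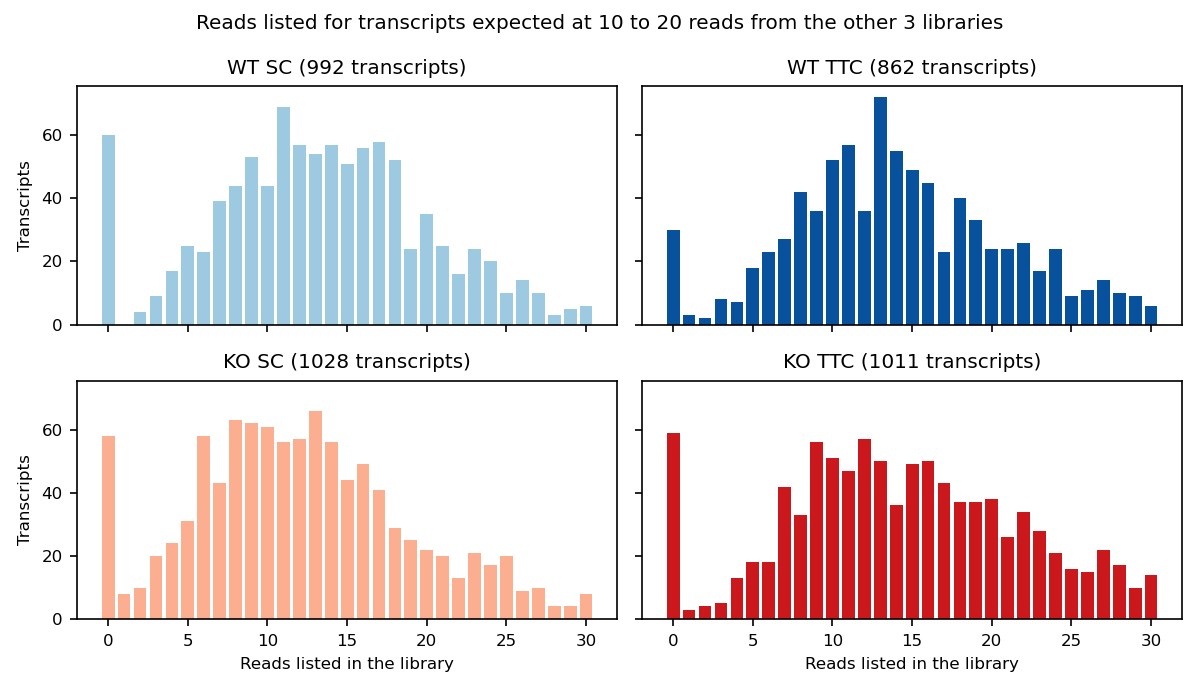
Number of transcripts (vertical axes) by the reads listed for them in 1 library (horizontal axes), for transcripts at which the other 3 libraries predict 10 to 20 reads. Each panel shows a peak at 0 (60, 30, 58 and 59 transcripts, in the order of the panels) followed by a dip at 1 and 2 reads and a broad distribution around the predicted value. Values up to 30 reads are drawn.

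The AP-1 members are Jund and Fosl2. JunD (ENSMUST00000095267.5) is the Jun protein that is also present in resting cells and dimerises with Fos and Jun proteins. Its reads were 6 for WT SC (2.86 RPM), 15 for WT TTC (10.3 RPM), 3 for KO SC (1.12 RPM) and 11 for KO TTC (3.01 RPM). It was the only gene of the set with reads in all 4 libraries, as 58.5% of the transcripts of the table had. The other 5 are in the second run, which is at 0 in WT SC throughout. WT TTC was the highest library of Jund, with a Poisson 95% interval of 5.75 to 16.9 RPM. Fosl2 (ENSMUST00000031017.10) encodes the Fos-related antigen Fra-2. It was listed at 0 in WT SC and had 6 reads (4.11 RPM) for WT TTC, 3 (1.12 RPM) for KO SC and 1 (0.274 RPM) for KO TTC. The interval of WT TTC was 1.51 to 8.94 RPM and that of KO SC 0.231 to 3.28 RPM.

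Nr4a3 (ENSMUST00000030025.9) encodes an orphan nuclear receptor of the NR4A family, which binds DNA without a known natural ligand. Its reads were in the TTC libraries alone, with 8 in WT TTC (5.48 RPM) and 6 in KO TTC (1.64 RPM), and both SC libraries were listed at 0. This pattern, reads in both TTC libraries and in no SC library, was shared by 179 transcripts, or 2.82% of the table. Klf10 (ENSMUST00000227920.1), a zinc finger repressor that is induced by TGF-beta, was listed at 0 in WT SC. The reads were 10 for WT TTC (6.85 RPM), 15 for KO SC (5.61 RPM) and 7 for KO TTC (1.91 RPM). The levels of WT TTC and KO SC lay within each other's intervals, and KO TTC was the lowest library with reads.

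Gadd45b and Btg2 are regulators of growth. Gadd45b (ENSMUST00000015456.9) encodes a small stress-response protein that is linked to active DNA demethylation in neurons. It had 5 reads in WT TTC (3.42 RPM, Poisson 95% interval 1.11 to 7.99 RPM) and was listed at 0 in the other 3 libraries. Reads in WT TTC alone were found for 155 transcripts, or 2.44% of the table. Btg2 (ENSMUST00000020692.6) encodes an antiproliferative protein that binds the CCR4-NOT deadenylase complex. It had 13 reads in WT TTC (8.90 RPM) and 15 in KO SC (5.61 RPM), and was listed at 0 in WT SC and KO TTC. Its reads thus lay in opposite genotypes in the pairs. Counting Btg2, 4 transcripts of the table were at 0 in the same 2 libraries with at least as many reads as Btg2 in the other 2.

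**Figure D3:**
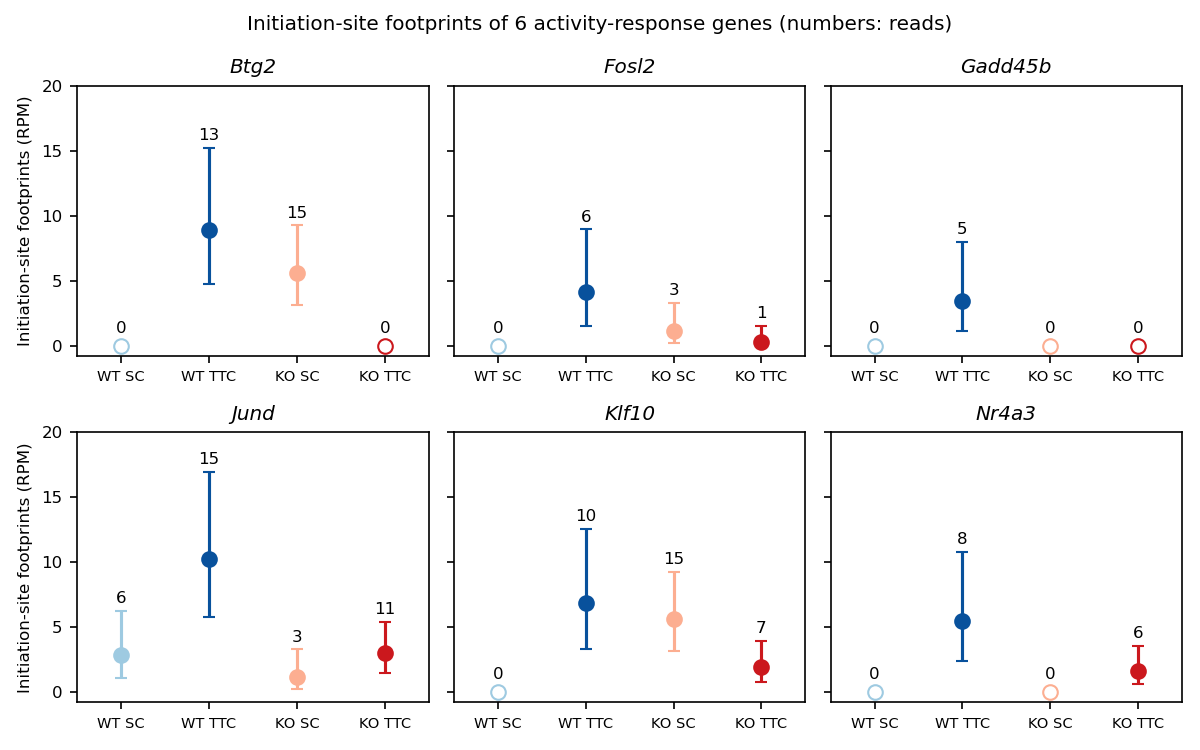
Footprints at the initiation site in RPM (vertical axes) in the 4 libraries (horizontal axes) for each of the 6 genes. Filled points are levels with exact Poisson 95% intervals as bars, open points are values listed at 0, and the numbers are reads. WT TTC is the highest library for each gene, from 3.42 RPM in Gadd45b to 10.3 RPM in Jund. Its place above KO TTC was fixed by the choice of the genes, and above WT SC by the run of rows for all but Jund.

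WT TTC was the 1 library in which the 6 genes all had reads. The 5 genes of the second run were at 0 in WT SC with their whole run, and the choice of the genes required reads in WT TTC. The order of the levels there was Jund (10.3 RPM), Btg2 (8.90), Klf10 (6.85), Nr4a3 (5.48), Fosl2 (4.11) and Gadd45b (3.42). The Poisson intervals of all 6 genes overlapped, also those of Jund (5.75 to 16.9 RPM) and Gadd45b (1.11 to 7.99 RPM) at the ends. In that library 51.4% (Gadd45b) to 76.8% (Jund) of the transcripts had a lower value, and these shares include the 28.4% that were listed at 0. The summed level of the 6 genes was 2.86, 39.0, 13.5 and 6.84 RPM, from 6, 57, 36 and 25 reads. Without Jund the sum was 0 for WT SC, 28.8 RPM for WT TTC, 12.3 RPM for KO SC and 3.83 RPM for KO TTC. WT TTC is the library with the fewest total reads, and 5, 0, 2 and 2 of the 6 genes were listed at 0 in the same order. Over all transcripts, 25.2%, 28.4%, 22.2% and 19.1% were listed at 0. Over the second run, which holds 5 of the 6 genes, the shares were 100%, 25%, 71.4% and 42.7%.

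In the TTC pair, which served to choose the genes, the difference KO TTC minus WT TTC in log10(RPM + 1) was -0.996 for Btg2, -0.646 for Gadd45b, -0.603 for Fosl2, -0.449 for Jund, -0.430 for Klf10 and -0.390 for Nr4a3. The limit of the lowest 5% was -0.375, and with ties 363 transcripts (5.71% of the table) lay at or below it. All 6 genes lay below it by choice, and Nr4a3 was the nearest to it. Jund, Klf10 and Nr4a3, with at least 6 reads in both libraries, were 3.41, 3.58 and 3.34 times as high in WT TTC as in KO TTC. Of the 363 lowest transcripts, 218 were listed at 0 in KO TTC and 145 (39.9%) belonged to the second run of rows. Within an activity list of 82 genes (the 6 families of the members and further effectors), 41 were in the table, and 9 of these lay at or below the limit. The other 3 were Inhba, which encodes an activin subunit, with 16 reads in WT TTC and listed at 0 in the other libraries, the kinase Sik1 (3 reads in WT TTC alone) and the transcription factor Cebpb (2 reads in WT TTC alone, on the limit at -0.375). The nearest outside it was the clock gene Per1 at -0.270, with 2 reads in WT TTC and 1 in KO TTC. Beyond the members, 14 of 35 listed genes were lower in KO TTC, 17 were higher and 4 were equal, with a median of 0, as over the whole table (2673 lower, 2775 higher and 904 equal, median 0).

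The SC pair shares no library with the pair used for the choice, but only Jund had reads in both of its libraries. Jund had 6 reads in WT SC against 3 in KO SC and did not pass (difference -0.260 in log10(RPM + 1), adjusted p = 0.605 by an exact binomial test of the reads, two-sided, with Benjamini-Hochberg adjustment across the 4339 transcripts with reads in both libraries). Over these transcripts 4.1% were called, 1.11% higher and 3% lower in KO SC. Jund had too few reads for any split with some in each library to pass, so that its test could not decide. Btg2 and Klf10, with 15 reads each in KO SC, and Fosl2, with 3, were listed at 0 in WT SC, as was every row of their run, so that their value in KO SC could not have been the lower one. The same test over all 5355 transcripts with reads in either library takes a listed 0 for a count. It called 7.38% of them, 2.63% higher and 4.74% lower, and Btg2 and Klf10 were among those higher, but for these genes the direction was fixed by the run and the call is no test of a difference. Gadd45b and Nr4a3 were listed at 0 in both libraries.

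In all, 17 genes of the same families were in the table, members included, and in the SC pair 7 of them had the lower value in KO SC, 6 the higher and 4 were equal. Gadd45g, the paralogue of Gadd45b, had 13 reads for WT SC and a listed 0 for KO SC beside 9 and 16 reads for WT TTC and KO TTC. The zinc finger factor Egr4 had 10 reads in WT SC and was listed at 0 in the other 3 libraries. Egr1 was listed at 0 in every library and Egr3 had 1 read, in KO TTC. No EGR gene thus had reads in more than 1 library, and Nr4a3 was the only NR4A gene in the table.

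Jun and Junb, the other Jun proteins, had reads in all libraries. Jun had 3.34, 5.48, 2.62 and 4.38 RPM, in the same order of libraries as Jund (SC pair, adjusted p = 0.991, exact binomial test). Junb had 3.34, 2.05, 7.11 and 2.19 RPM for the same libraries, with its fewest reads, 3, in the library in which Jund was highest (SC pair, adjusted p = 0.404, exact binomial test). Among the Krüppel-like factors, Klf13 was the most abundant, at 16.2, 42.5, 9.73 and 30.1 RPM. Klf6 had 4.77, 6.85, 2.99 and 3.56 RPM in the same order of libraries, and Klf16 had 12.9, 13.01, 9.73 and 18.1 RPM. For Klf13 and Klf6, as for Klf10, WT TTC was the highest library, whereas for Klf16 it was KO TTC. Klf9 had 1 read (WT SC) against 8 (KO SC), with a listed 0 in the TTC libraries. Tob1, of the family of Btg2, had 2, 1 and 3 reads and was listed at 0 in KO TTC. None of these genes passed in the SC pair, in which each had reads in both libraries. Klf9 and Tob1 had too few reads for any split over both libraries to pass. Summed over the 11 family genes other than the members, the level was 53.0 (WT SC), 76.7 (WT TTC), 36.3 (KO SC) and 62.9 RPM (KO TTC). Klf13 carried the high value of WT TTC, since without it the other 10 summed to 36.7, 34.2, 26.6 and 32.8 RPM, with WT SC the highest.

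**Figure D4:**
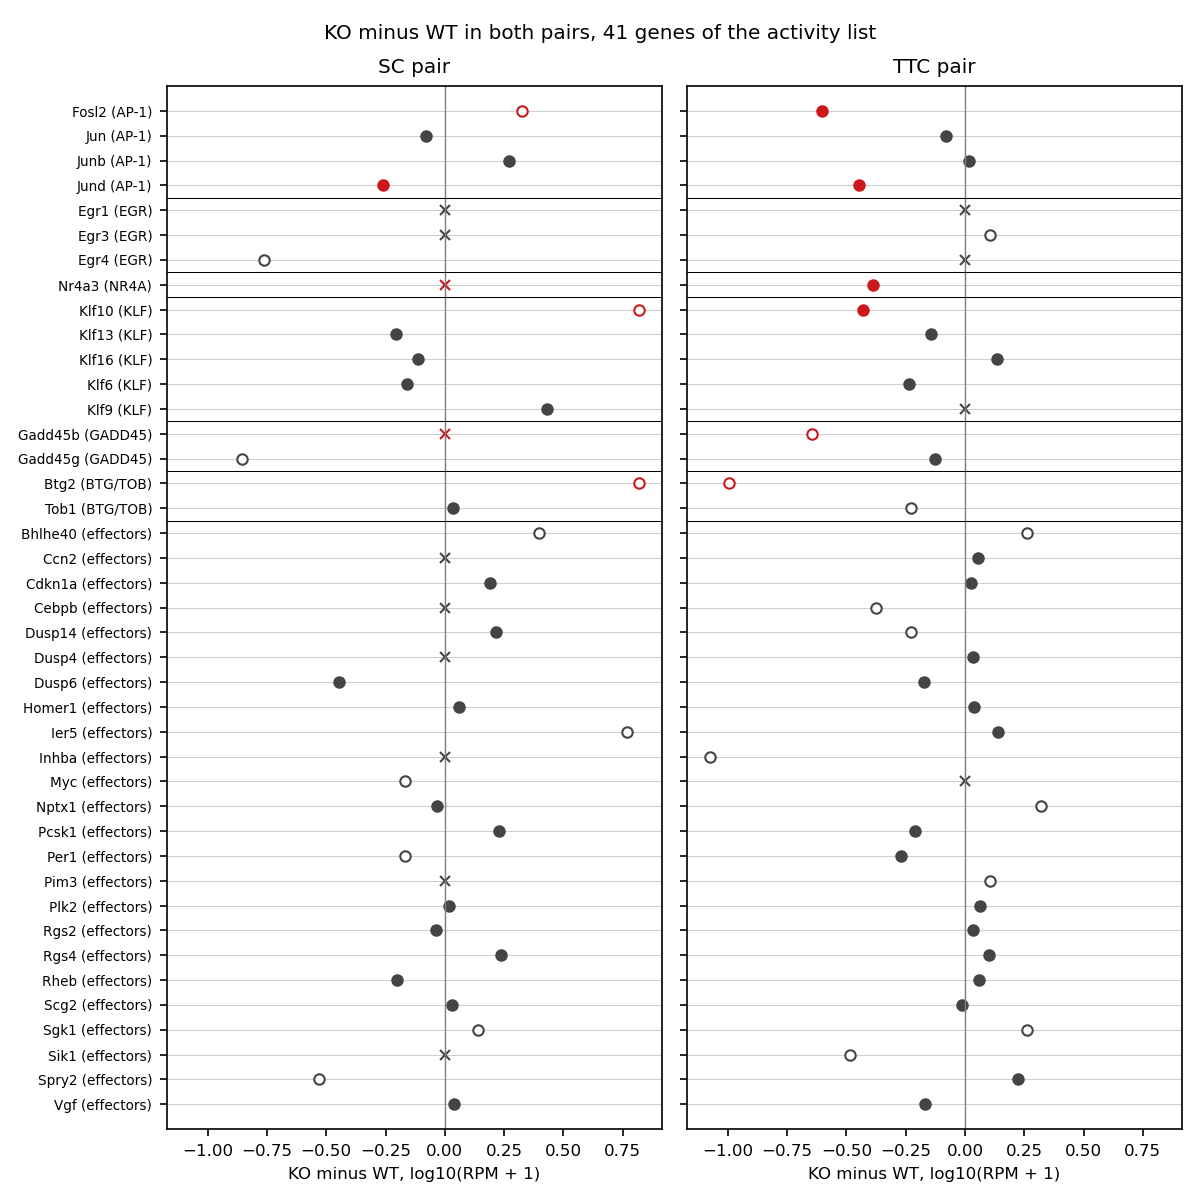
Difference KO minus WT in log10(RPM + 1) (horizontal axes) for the 41 genes of the activity list found in the table (vertical axis, family in brackets), with the SC pair on the left and the TTC pair on the right. Red marks the 6 members, open circles a gene listed at 0 in 1 library of the pair and crosses a gene listed at 0 in both. The members lie left of 0 in the TTC pair by choice, and in the SC pair Btg2 and Klf10 lie at 0.820 and Jund at -0.260.

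Over the whole activity list, 14 genes were lower in KO SC, 17 higher and 10 equal, with a median difference of 0, against 46.3% lower and 38.0% higher over all transcripts, with a median of 0. None of the list was called among transcripts with reads in both libraries. With a listed 0 taken for a count, 2 were called lower (Gadd45g and Egr4) and 3 higher (Btg2, Klf10 and Ier5), and all 5 calls rest on a listed 0, as did 44.6% of the 395 calls of the whole table. Ier5, an immediate early regulator of heat shock factor, was listed at 0 in WT SC and had 13 reads in KO SC, beside 6 and 22 reads in the TTC libraries. In the list, 16, 9, 15 and 11 of 41 genes were listed at 0, and 11 of 41 (26.8%) were in the second run of rows.

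The abundant effectors of the list gave more reads. The 4 with the highest mean level were the kinase Plk2, which scales synapses down after activity (40.1, 17.8, 41.9 and 20.8 RPM), the cell cycle inhibitor Cdkn1a (12.4, 23.3, 19.8 and 24.6 RPM), the granin Scg2 (13.8, 21.2, 14.96 and 20.5 RPM) and the G protein regulator Rgs4 (11.4, 15.7, 20.6 and 20.2 RPM). None of them passed in the SC pair (adjusted p from 0.137 to 1, exact binomial test). Plk2 was higher in both SC libraries than in both TTC libraries, as was Camk2a, given below. Of the upstream kinases and factors, 22 of 27 were in the table, and 0 of 21 tested were called in the SC pair. Abundant genes among them were Camk2b, a calcium/calmodulin-dependent kinase (218, 279, 194 and 183 RPM), Camk2a (36.7, 22.6, 46.4 and 26.8 RPM) and the calcineurin subunit Ppp3ca (28.6, 31.5, 23.2 and 23.8 RPM). Of 13 protein partners of the members, 9 were in the table, and 0 of 9 were called. Among these, the methyltransferase Prmt1, which binds Btg2, had 7.16, 8.90, 7.48 and 14.8 RPM in the same order, and Siah1a, a ubiquitin ligase that targets Klf10, 8.11, 5.48, 6.73 and 9.03 RPM. Pcna, the replication clamp bound by GADD45 proteins, had 13.8, 20.5, 22.4 and 16.7 RPM, and the small Maf protein Mafg 4.29, 3.42, 2.62 and 2.46 RPM.

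Between the RNAi arms, each pair shares a library with the pair used for the choice, so that no test is given. WT TTC was higher than WT SC for each of the 6 genes, by 0.465 (Jund) to 0.996 (Btg2) in log10(RPM + 1). For the 5 genes of the second run this direction was fixed. Their run was at 0 in WT SC throughout, the choice required reads in WT TTC, and the sizes depend on the pseudocount. In the Ltn1 KO libraries the genes divided. Btg2 (-0.820), Klf10 (-0.356) and Fosl2 (-0.222) had less in the TTC library than in the SC library, Nr4a3 (0.422) and Jund (0.276) had more, and Gadd45b was listed at 0 in both.

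Glial markers also differed between these libraries. The summed level of 8 oligodendrocyte lineage markers (of 11) was 38.6, 93.8, 11.97 and 46.5 RPM, with 1, 0, 4 and 0 of them listed at 0. The sum of these markers was highest in WT TTC, as for the 6 genes, whose choice required WT TTC to lie above KO TTC. Olig1 and Cnp were highest in WT SC, at 7.63 and 4.29 RPM, against 3.42 and 2.05 RPM in WT TTC. Each of the other markers of this lineage was highest in WT TTC. Gpr17 had 38 reads in WT TTC, 24 in KO TTC and was listed at 0 in both SC libraries. The 8 astrocyte markers (of 9) summed to 239.96, 289.6, 178.8 and 228.95 RPM. The part of these cells in the values of the 6 genes was not tested. In bulk footprint libraries, fewer cells of a type, less RNA per cell and less initiation on that RNA cannot be told apart.

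The transcripts most like the summed members in their distribution over the 4 libraries were sought among 2314 others whose mean level reached 5 RPM. The members had 4.602% of their summed RPM from WT SC, 62.8% from WT TTC, 21.7% from KO SC and 10.99% from KO TTC. By the sum of absolute differences of these shares, the nearest were Selenos (0.258), Dnajb1 (0.267), Nucb1 (0.301), Mrpl43 (0.310) and Etv5 (0.325), over 4 libraries. Dnajb1, a cochaperone of HSP70, was likewise listed at 0 in WT SC, with 12.3 (WT TTC), 2.99 (KO SC) and 4.92 RPM (KO TTC). Etv5, an ETS transcription factor, had 5.25, 16.4, 7.11 and 5.74 RPM over the 4 libraries.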

How the data were processed

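Ribosome footprints of 4 libraries were used. Per the labels, Bowtie, SAMtools and bedtools were named for mouse build mm10 with no version, and the window at the initiation site, the annotation and the choice of transcripts are not given in the sources used here. The authors deposited RPM, scaled to all reads of a library, for 6352 transcripts. In each library 100% of the values were whole multiples of 1 read within 0.001, and reads were recovered from these steps. Symbols came from the study's ranked gene list through transcript identifiers for 6351 transcripts (6313 directly, 38 after a surplus zero in the identifier was removed). Differences are in log10(RPM + 1). Libraries of the SC pair were compared by the two-sided exact conditional binomial test, called at an adjusted p of 0.05, which was checked on simulated data. Adjusted p-values cover all transcripts with reads in either library, except that of Jund, which covers those with reads in both, a choice made after seeing the data. The members, gene lists and alternatives were chosen with earlier results of these data known. All family genes, the 4 most abundant genes of the other lists, list genes called in the SC pair, and the 5 nearest transcripts were named, except 1 upstream gene that is not reported here. Inhba, Sik1, Cebpb, Per1 and Gpr17 were named after their values were seen. An additive edgeR fit of genotype and code (1 residual degree of freedom) was an alternative. Promoter windows and gene spans are from RefSeq on GRCm38.p6. Python 3.11.15, numpy 2.4.6, pandas 2.3.3, scipy 1.17.1, matplotlib 3.10.9, R 4.3.3 and edgeR 4.0.16 were used.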

Additional observations from a re-analysis of the deposited data

Results flagged for a closer look

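Btg2, Klf10 and Fosl2 had the higher value in KO in the SC pair and the lower value in KO in the TTC pair. The differences in log10(RPM + 1) were 0.82 and -0.996 for Btg2, 0.82 and -0.43 for Klf10, and 0.327 and -0.603 for Fosl2. The difference between the pairs was not tested, and the direction in the TTC pair was fixed by the choice of the genes. Each of them was listed at 0 in WT SC, as was every row of its run in the table, so that the direction in the SC pair was fixed as well.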

How the results depend on the processing

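No paired analysis was possible because each condition had 1 library. With a mean of at least 5 RPM in the SC pair, 168 transcripts were called lower and 58 higher in KO SC (254 and 141 without the filter). Among transcripts with reads in both libraries, an alternative chosen after seeing the data, 130 were called lower and 48 higher. Under both, the activity list had 0 called lower and 0 called higher, with a median of 0.0254, and 0 of the 6 members were called higher. The filter leaves out all 6 members, and the need for reads in both libraries leaves out all but Jund. Without the members, 1 gene of the list was called higher. The edgeR fit over the 4 libraries called 0 lower and 0 higher of 2808 transcripts for genotype (133 and 60 at an unadjusted p of 0.05). With a pseudocount of 0.1 RPM, 3 of the 6 members were in the lowest 5% of the TTC pair, against 6. For Jund in the SC pair, the adjusted p was 0.527 to 0.696 over the other settings (exact test). Its reads were too few for any split over both libraries to pass. The calls of Btg2 and Klf10 take a listed 0 for a count, and no setting makes them a test. The median log2 ratio of KO SC to WT SC over 3713 transcripts with reads in all libraries was -0.14, and -0.0046 with median-of-ratios factors. At 1 to 15 reads per value not listed at 0, counting error limits every level of the 6 genes.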
